A study of Mus musculus with 12 samples.

Results

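The kinase module of Mediator was examined in ventricles and epididymal white adipose tissue (EWAT) of mice that carry a cardiac MED13 transgene. The 7 genes taken were those that encode its subunits in the mouse, namely Med13, Med13l, Med12, Med12l, Cdk8, Cdk19 and Ccnc. They were found by symbol among the 23042 entries of each tissue's expression table, and each of the 7 had 1 entry that it shared with no other gene. On mm9 these entries span chr11:86079216-86172461 (Med13), chr5:119010727-119215446 (Med13l), chrX:98469429-98494273 (Med12), chr3:58810899-59148178 (Med12l), chr5:147043250-147114450 (Cdk8), chr10:40069113-40203624 (Cdk19) and chr4:21654849-21677693 (Ccnc). RNA was sequenced from 12 libraries, 3 per genotype and tissue. WT and MED13 cardiac transgenic (MED13cTg) mice were male C57BL/6 littermates, 6 weeks old per the labels, that were fed normal chow freely, and tissue was taken late in the day. The transgene was meant for the heart alone, so that EWAT was a tissue outside its site of expression. The promoter that drives it, and whether 1 founder line was used, are not given in the sources used here. Levels are FPKM, fragments scaled to transcript length and to the mapped fragments of the library, as estimated by the authors for each library.

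Mediator is a large complex that links transcription factors bound at enhancers to RNA polymerase II at promoters. The kinase module joins and leaves it reversibly. CDK8 or CDK19 is the catalytic subunit, cyclin C (encoded by Ccnc) its cyclin partner, MED12 or MED12L the subunit that activates the kinase, and MED13 or MED13L the subunit that links the module to the rest of Mediator. Within each of the 3 paralog pairs a module holds either product. When bound, the module keeps polymerase II from joining Mediator, and its kinase phosphorylates transcription factors. In the heart, Med13 is known as a target of miR-208a, a microRNA encoded within an intron of the cardiac myosin gene Myh6. Its relative miR-208b lies in Myh7.

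The mature miR-208 sequences and the matching stretch of Med13 are shown because Med13 alone of the 7 genes held a match to their seed. Both microRNAs are from RefSeq (GRCm38.p6) and are written 5′ to 3′, with bases 2 to 8, the seed, in capitals.
mmu-miR-208a-3p: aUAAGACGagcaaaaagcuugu
mmu-miR-208b-3p: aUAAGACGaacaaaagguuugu
Both lie on the minus strand, at chr14:54949072-54949093 and chr14:54975710-54975731. They have the same seed and differ at 3 bases (G10A, A16G and C18U, the base of miR-208a first, with positions counted from the 5′ end). The reverse complement of the seed, CGTCTTA, was searched for on the sense strand of the longest annotated 3′ UTR of each gene (GENCODE M21 basic set, GRCm38). It occurred once in Med13, at base 547 of a 3′ UTR of 3953 bases, and it is given in capitals with its flanks.
Med13 3′ UTR: atatatgtaatCGTCTTAattaaaacgtt
This stretch lies at chr11:86270422-86270450 on the minus strand. No match was found in the 3′ UTRs of the other 6 subunit genes, which were 235 to 4015 bases long. Of all 20979 genes with a 3′ UTR, 320 (1.53%) held the same 7 bases. Among the 15973 genes whose 3′ UTR fell anywhere from 235 to 4015 bases, the range of the members, the share was 1.43%. Neither share is matched to the length of the Med13 3′ UTR, which is near the top of that range. A match of letters is not evidence of binding.

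Some libraries stood apart from the rest. In EWAT, Spearman correlations across genes ran from 0.958 to 0.972 between WT libraries, but MED13cTg replicate 1 reached at most 0.494 with any other library and MED13cTg replicate 2 at most 0.852. The summed FPKM of 14 epididymis markers was 54726 to 69508 in WT EWAT, against 8706, 174 and 52993 in MED13cTg replicates 1, 2 and 3. The sum of 8 testis germ cell markers was 276 to 347 in WT and 13218, 7.47 and 399 in those replicates, while that of 11 adipocyte markers was 13399 to 31946 in WT and 1299, 79566 and 17323. In these bulk samples, fewer cells of a type and less RNA per cell cannot be told apart. Shares and the log2 differences of most named genes in EWAT are therefore also given without MED13cTg replicates 1 and 2. The part of these markers in each result was not tested. In ventricles the correlations ran from 0.944 to 0.969, with WT replicate 1 and MED13cTg replicates 1 and 2 on one side and the other 3 libraries on the other. All 10 cardiomyocyte markers were at or above 1 FPKM in every ventricular library. Atrial myocyte markers summed to 452 to 747 FPKM in WT and to 998 to 2450 in MED13cTg ventricles. Of the 6 markers, Nppa alone did not overlap (368 to 564 FPKM in WT, 892 to 1773 in MED13cTg), while Myl7, Myl4 and Sln overlapped and were high in MED13cTg replicate 2, with Myl7 at 322 FPKM there against 20.9 to 63.5 in WT. Their part in the ventricular results was not tested. Ratios of low FPKM values between libraries placed the number of fragments behind the ventricular libraries at 0.914 to 1.028 times that of WT replicate 1. In EWAT they gave 0.746 to 0.932 times WT replicate 1, with no clear value for MED13cTg replicate 1. Absolute depth is unknown.

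In WT ventricles, Cdk8 had the highest mean level of the module at 17.4 ± 6.69 FPKM (SD, n = 3). It was followed by Med12 (14.7 ± 0.636), Med13 (11.7 ± 1.26), Cdk19 (10.1 ± 1.35), Ccnc (9.23 ± 1.32), Med13l (6.12 ± 0.758) and Med12l (1.46 ± 0.373). FPKM is per length, so that levels of different genes can be set side by side. The ranges of the 3 libraries were apart between Med12 and Med13, between Ccnc and Med13l and between Med13l and Med12l. Cdk8 and Med12 overlapped, as did Med13 with Cdk19 and Cdk19 with Ccnc. By its mean in WT ventricles, Med13 stood at rank 6413 of 23042 entries. Among the genes tested, the members ran from percentile 5.85 (Med12l) to percentile 60.6 (Cdk8).

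In WT EWAT, Cdk8 was again first, at 36.0 ± 1.41 FPKM, and the order below it was Med13 (10.1 ± 0.764), Ccnc (8.35 ± 0.183), Med12 (6.41 ± 1.70), Cdk19 (4.01 ± 0.216), Med13l (3.77 ± 0.262) and Med12l (0.362 ± 0.0604). Ccnc and Med12 overlapped, as did Cdk19 and Med13l, and all other neighbours were apart. In both tissues the paralogs with the lower mean level were Med12l, Med13l and Cdk19. The tables were made separately for each tissue, so no test was run between tissues. Shares within a library are free of that limit. Cdk8 made up 61.7% ± 11.3 of the summed Cdk8 and Cdk19 level in WT ventricles and 90.0% ± 0.831 in WT EWAT. Med13 made up 65.6% ± 4.93 of Med13 and Med13l in WT ventricles and 72.8% ± 0.392 in WT EWAT. Med12 made up 90.9% ± 2.45 and 94.4% ± 2.04 of Med12 and Med12l. All 3 WT EWAT libraries held more epididymis than adipocyte marker FPKM (54726 to 69508 against 13399 to 31946), and the part of epididymal RNA in the EWAT levels and shares was not tested. MED13cTg replicates 1 and 2 had the lowest epididymis sums in EWAT (8706 and 174 FPKM), and their Cdk8 shares were 56.0% and 82.1%. These 2 libraries also differ from WT in genotype and in the other marker sums.

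**Figure D1:**
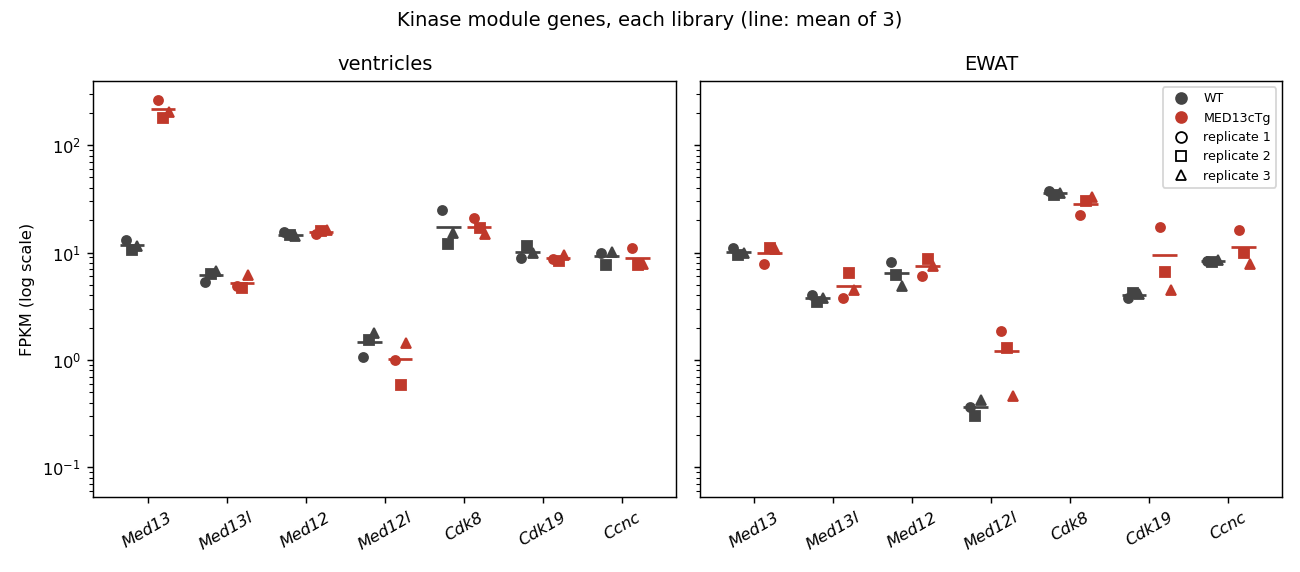
FPKM on a log axis of the 7 kinase module genes in each of the 12 libraries, WT in grey and MED13cTg in red, with a line at the mean of 3. Ventricular Med13 lies at 181 to 263 FPKM in MED13cTg and at 10.6 to 13.1 in WT, while the other 6 genes overlap between genotypes in ventricles.

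To check the transgene, Med13 was examined first. In ventricles its level was 13.1, 10.6 and 11.5 FPKM in WT replicates 1 to 3, against 263, 181 and 204 FPKM in MED13cTg replicates 1 to 3. The genotypes did not overlap, and the lowest MED13cTg library stood at 181 FPKM. The mean rose 18.4-fold, from 11.7 ± 1.26 to 216 ± 42.5 FPKM (SD, n = 3), and Med13 moved from rank 6413 to rank 510 of 23042 entries. On the log2(FPKM + 1) scale the difference was 4.08 with an SE of 0.17 (95% interval 3.69 to 4.47, limma, adjusted p = 0.000281 over 12589 genes). Within the 2 sets of like ventricular libraries it was 3.96 (WT replicate 1, MED13cTg replicates 1 and 2) and 4.09 (the other 3). FPKM of the whole gene does not separate transgene from endogenous Med13 transcripts, and whether the transgene has the 3′ UTR match shown above is not given in the sources used here.

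In EWAT, Med13 was 10.9, 9.43 and 9.99 FPKM in WT, against 7.84, 11.0 and 10.7 in MED13cTg. The genotypes overlapped, and the library below the WT range was MED13cTg replicate 1. The log2 difference was -0.05 with an SE of 0.22 (95% interval -0.60 to 0.50, limma adjusted p = 0.943), and it was 0.07 without MED13cTg replicates 1 and 2. An increase in EWAT of the size seen in ventricles lies outside this interval.

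In ventricles Med13 was the 1 module gene of 7 tested that passed the threshold of an adjusted p of 0.05, in a comparison where 0.0556% of all genes passed (7 of 12589). Med13 was also the 1 member whose genotypes did not overlap, against 9.31% of all genes tested. Since Med13 is the transgene itself, the 6 other subunits are the ones on which the comparison informs. None of them passed (limma), none had an unadjusted p under 0.05, and their median log2 difference was -0.11, against -0.01 over all genes. This median was -0.0511 without MED13cTg replicate 2, -0.0695 without WT replicate 3 and -0.161 without WT replicate 2.

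**Figure D2:**
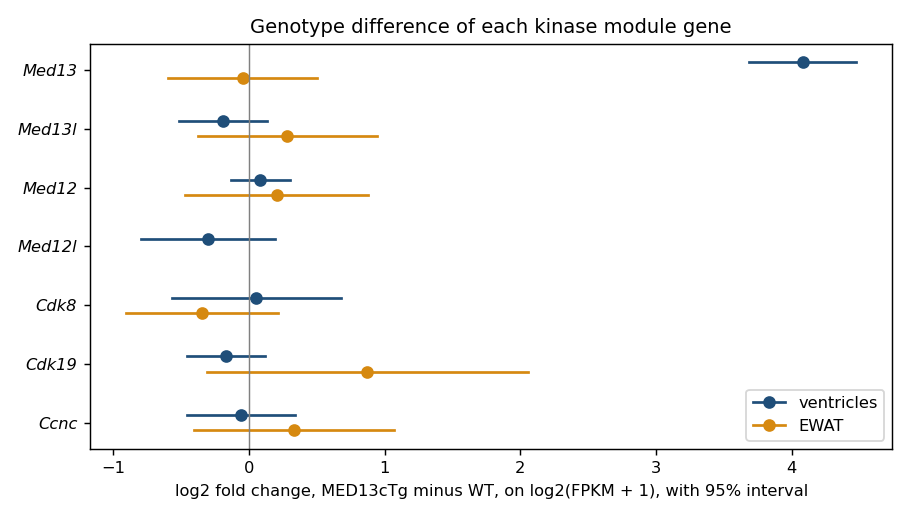
Difference between MED13cTg and WT on the log2(FPKM + 1) scale with its 95% interval from limma, for ventricles in blue and EWAT in orange. Med13 in ventricles stands at 4.08, every other interval includes 0, and Med12l was below the expression filter in EWAT.

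Med13l, whose product takes the place of MED13 in the module, was 5.27, 6.36 and 6.72 FPKM in WT ventricles, against 4.90, 4.70 and 6.14 in MED13cTg ventricles. Its MED13cTg libraries 1 and 2 lay below the WT range and replicate 3 within it. The log2 difference was -0.19 with an SE of 0.14 (limma adjusted p = 0.966). In EWAT, Med13l was 4.02, 3.50 and 3.81 FPKM in WT, against 3.81, 6.45 and 4.45 in MED13cTg. The highest library was MED13cTg replicate 2, and the difference of 0.28 (SE 0.27) did not pass (limma adjusted p = 0.738). It was 0.10 without MED13cTg replicate 2 and 0.19 without replicates 1 and 2.

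Med12, which activates the kinase, had the narrowest interval of the 7 members in ventricles, with 15.4, 14.5 and 14.1 FPKM in WT, against 14.9, 15.7 and 16.2 in MED13cTg. The ranges overlapped, and the log2 difference was 0.09 with an SE of 0.09 (95% interval -0.13 to 0.30, limma adjusted p = 0.966). In EWAT, Med12 was 8.23, 6.14 and 4.86 FPKM in WT against 6.09, 8.78 and 7.54 in MED13cTg, with a difference of 0.21 (SE 0.27, limma adjusted p = 0.775). The value for Med12 rested on single libraries: it was 0.0488 without WT replicate 3, 0.0955 without MED13cTg replicate 2, 0.327 without MED13cTg replicate 1 and 0.376 without WT replicate 1. It was 0.23 without both MED13cTg replicates 1 and 2. Med12l was the least abundant member in both tissues. Its level was 1.06, 1.53 and 1.80 FPKM in WT ventricles, against 1.01, 0.589 and 1.45 in MED13cTg ventricles (log2 difference -0.30, SE 0.21, limma adjusted p = 0.966). These ranges overlapped.

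Med12l in EWAT had a mean below the filter of 1 FPKM and was therefore not among the genes tested. Its libraries held 0.365, 0.301 and 0.421 FPKM in WT, against 1.85, 1.29 and 0.458 in MED13cTg. All MED13cTg libraries exceeded the WT range, but replicate 3 stood only 0.0369 FPKM above the highest WT value. With no filter the log2 difference was 0.64 (SE 0.27, limma adjusted p = 0.740). The 2 libraries far above the WT values, replicates 1 and 2, are those with the low correlations and the marker sums farthest from WT.

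Among the kinase subunits and their cyclin, nothing passed the threshold in ventricles. Cdk8 was 24.9, 12.1 and 15.1 FPKM in WT ventricles, against 20.8, 16.8 and 14.7 in MED13cTg ventricles. WT replicate 1 was the highest of all 6, and the WT spread held every MED13cTg value. The log2 difference was 0.05 with an SE of 0.26 (95% interval -0.57 to 0.68, limma adjusted p = 0.985), and its sign differed between the 2 sets of like libraries (-0.39 and 0.11). Cdk19 was 8.89, 11.6 and 9.91 FPKM in WT, against 8.78, 8.34 and 9.51 in MED13cTg ventricles (-0.17, SE 0.12, limma adjusted p = 0.966). Replicate 3 of MED13cTg lay within the WT range of Cdk19 and the other 2 libraries lay just below it. Ccnc was 9.89, 7.71 and 10.1 FPKM in WT, against 11.1, 7.70 and 7.88 in MED13cTg ventricles (-0.06, SE 0.17, limma adjusted p = 0.976), and the ranges overlapped.

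The summed level of the 6 subunits other than Med13 was 59.0 ± 5.91 FPKM in WT and 57.1 ± 3.96 FPKM in MED13cTg ventricles (exact permutation test, two-sided, p = 0.7, n = 3). The shares of the module's transcripts were then compared. Med13 made up 16.7%, 16.5% and 16.6% of the 7 genes' summed FPKM in WT ventricles and 81.1%, 77.0% and 78.5% in MED13cTg ventricles. Of Med13 and Med13l together, Med13 made up 71.3%, 62.5% and 63.1% in WT and 98.2%, 97.5% and 97.1% in MED13cTg. Both shares were higher in every MED13cTg library (exact permutation p = 0.1 each, adjusted p = 0.2 over 8 shares). With 3 against 3 libraries 0.1 is the smallest p that the test can give, so no share could pass 0.05. Both values follow from the rise of Med13 itself. The Med12 share (90.9% ± 2.45 in WT, 93.9% ± 2.33 in MED13cTg, exact permutation p = 0.2, adjusted p = 0.267) and the Cdk8 share (61.7% ± 11.3 and 66.0% ± 4.86, p = 0.6, adjusted p = 0.686) overlapped between genotypes.

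**Figure D3:**
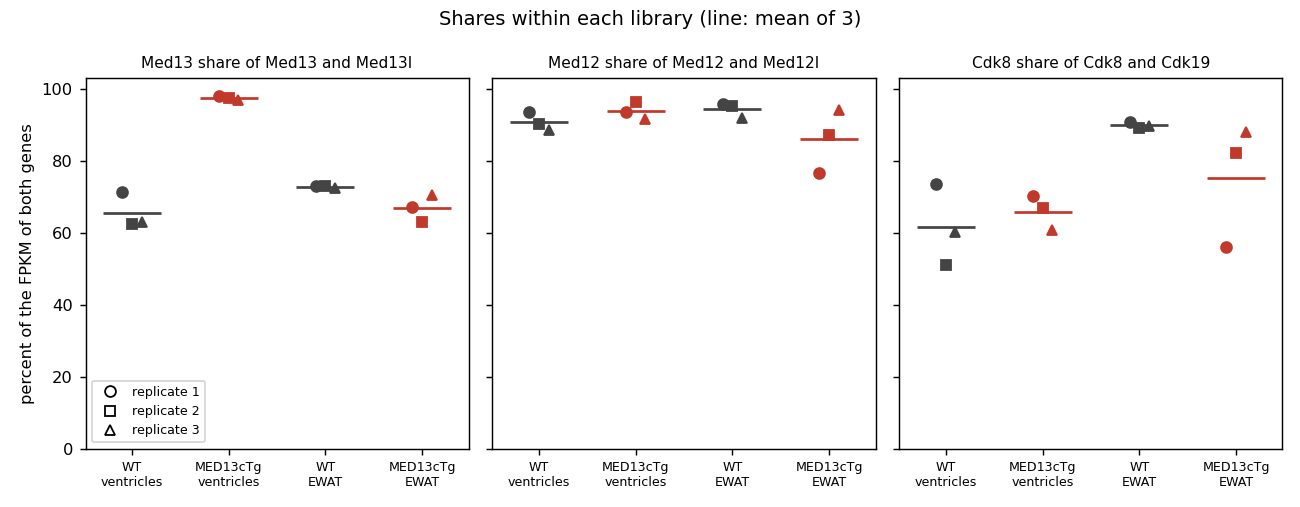
Percent of the summed FPKM of each paralog pair that came from Med13, Med12 or Cdk8, in each library, with a line at the mean of 3. The Med13 share is 97.1% to 98.2% in MED13cTg ventricles, and the Cdk8 share in MED13cTg EWAT spreads from 56.0% to 88.0% while WT EWAT lies between 89.2% and 90.8%.

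In EWAT no module gene passed the threshold (0 of 6 tested by limma, 0 at an unadjusted p under 0.05, where 0.0134% of all genes, 2 in number, passed after adjustment and 1.25% had an unadjusted p under 0.05). In the fit that blocks on replicate number, no gene of the whole EWAT table passed (limma, 17 higher and 279 lower at an unadjusted p under 0.05). Of the 6, Cdk8 and Cdk19 did not overlap between genotypes, in opposite directions, against 12.7% of all genes tested. Cdk8 was 37.5, 34.7 and 36.0 FPKM in WT, against 22.1, 30.4 and 33.2 in MED13cTg. Cdk19 was 3.78, 4.20 and 4.07 FPKM in WT, against 17.4, 6.61 and 4.51 in MED13cTg. Every MED13cTg library was below WT for Cdk8 and above WT for Cdk19, and in both genes replicate 1 was farthest from WT and replicate 3 nearest. The log2 difference was -0.34 (SE 0.23) for Cdk8 and 0.87 (SE 0.48) for Cdk19 (limma adjusted p = 0.738 for each). Without MED13cTg replicates 1 and 2 these became -0.12 for Cdk8 and 0.14 for Cdk19.

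The Cdk8 share of Cdk8 and Cdk19 in EWAT was 90.8%, 89.2% and 89.8% in WT and 56.0%, 82.1% and 88.0% in MED13cTg (exact permutation p = 0.1, adjusted p = 0.2 over 8 shares). The summed level of Cdk8 and Cdk19 was 40.0 ± 1.20 FPKM in WT and 38.1 ± 1.33 FPKM in MED13cTg, with overlapping ranges (exact permutation p = 0.2, n = 3). The mean share differed by -14.6 percentage points between MED13cTg and WT, by -4.87 without replicate 1 and by -1.92 with replicate 3 alone. MED13cTg replicate 1, with the lowest share, was also the library with 13218 FPKM of testis germ cell markers, and its adipocyte sum of 1299 FPKM was the lowest of the 6. In replicate 2, with the next lowest share, the epididymis sum was 174 FPKM and the adipocyte sum 79566 FPKM.

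Ccnc in EWAT was 8.32, 8.19 and 8.55 FPKM in WT, against 16.1, 9.98 and 7.76 in MED13cTg (log2 difference 0.33, SE 0.30, limma adjusted p = 0.738). Replicates 1 and 2 were above the WT range and replicate 3 below it, and with replicate 3 alone the difference was -0.09. The Med13 share of Med13 and Med13l was 73.1%, 72.9% and 72.4% in WT EWAT and 67.3%, 63.1% and 70.6% in MED13cTg EWAT (exact permutation p = 0.1, adjusted p = 0.2). It was lower in every MED13cTg library, with a difference of -5.83 percentage points on average and of -2.23 with replicate 3 alone. The Med12 share was 95.8%, 95.3% and 92.0% in WT and 76.7%, 87.2% and 94.3% in MED13cTg EWAT (p = 0.2 by exact permutation, adjusted p = 0.267). For the Med12 share, replicate 3 lay within the WT range, and the difference was -8.32 percentage points with all libraries and -0.10 with replicate 3 alone. Med13 made up 14.6% ± 0.398 of all 7 genes in WT and 13.6% ± 2.78 in MED13cTg EWAT (exact permutation p = 0.9), and the difference was 0.946 percentage points with replicate 3 alone.

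**Figure D4:**
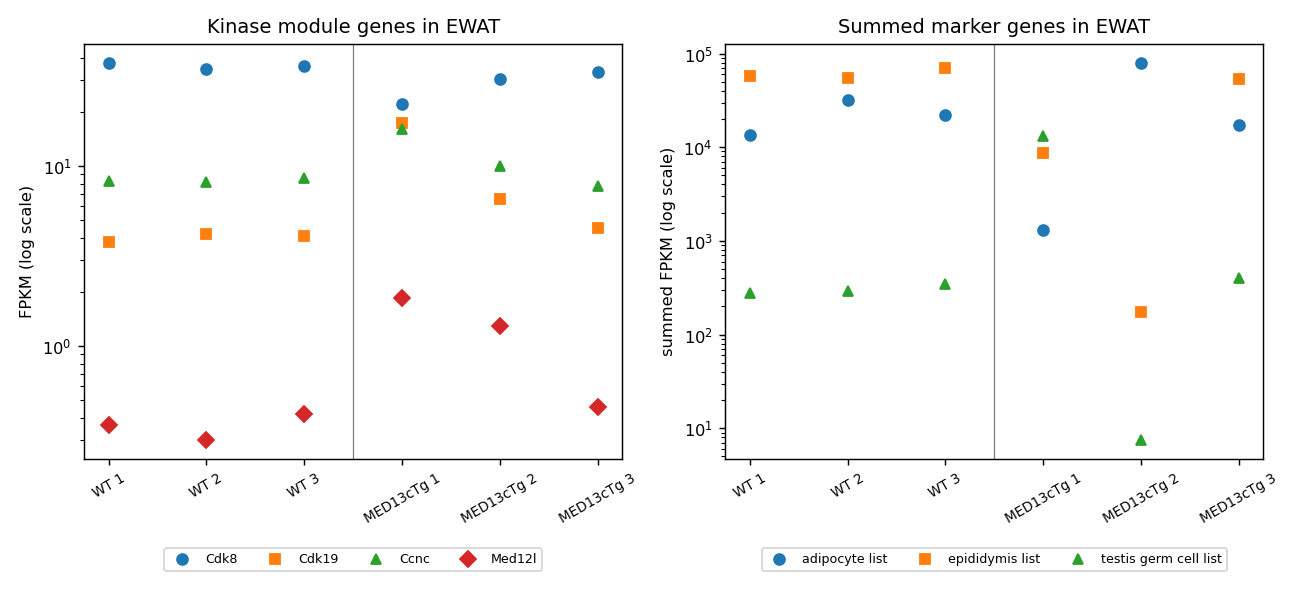
EWAT libraries one by one on log axes, with the FPKM of Cdk8, Cdk19, Ccnc and Med12l on the left and the summed FPKM of adipocyte, epididymis and testis germ cell marker lists on the right. In MED13cTg replicate 1, Cdk19 is at 17.4 FPKM beside Cdk8 at 22.1, and the germ cell sum is 13218 FPKM, while replicate 3 lies near the WT libraries in both panels.

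The wider pathway was followed through 50 genes in 4 lists. These were 26 subunits of core Mediator (head, middle and tail), 12 other transcriptional cyclin-dependent kinases and cyclins, 8 transcription factors and cofactors that CDK8 phosphorylates or works with, and 4 genes for the ubiquitin ligase with FBXW7 that turns over MED13. All 50 were tested in both tissues. In ventricles none passed the threshold in either direction, none had an unadjusted p under 0.05 (4.73% of all genes had one) and none was without overlap between genotypes (9.31% of all genes). Their log2 differences ran from -0.25 to 0.34 with a median of -0.002, against -0.01 over all genes. The median FPKM of core Mediator genes was 15.0 ± 0.905 in WT and 15.1 ± 1.80 in MED13cTg ventricles.

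Core Mediator genes in ventricles had a median log2 difference of 0.02, with 14 of 26 above 0. The smallest unadjusted p values belonged to Med11 (9.60 ± 1.68 FPKM in WT, 11.6 ± 1.70 in MED13cTg, log2 difference 0.26) and Med18 (1.62 ± 0.531 and 2.13 ± 0.331 FPKM, 0.27), both head subunits. Among the other kinases and cyclins, Ccnk, the cyclin partner of CDK12 and CDK13, came first with 17.7 ± 1.16 FPKM in WT and 15.8 ± 0.858 in MED13cTg ventricles (-0.15). Cdk7, the kinase of TFIIH, followed (6.22 ± 0.833 and 5.80 ± 0.152 FPKM, -0.08). In the list of CDK8 substrates and partners, E2f1, a cell cycle factor, had 1.93 ± 0.818 FPKM in WT and 2.75 ± 1.18 in MED13cTg (0.34), and Srebf1, a regulator of lipid synthesis, 12.0 ± 0.771 and 11.2 ± 1.27 FPKM (-0.09). Fbxw7, the substrate receptor that marks MED13 for degradation, was 20.1, 27.8 and 22.2 FPKM in WT, against 18.1, 21.0 and 19.1 in MED13cTg ventricles (-0.25, SE 0.14, limma adjusted p = 0.966). Skp1a, a core subunit of the same ligase, was 161 ± 12.2 and 153 ± 17.7 FPKM (-0.08). The lists other than core Mediator had medians of -0.004 (kinases and cyclins), 0.04 (CDK8 substrates and partners) and -0.08 (ligase), and the lowest adjusted p of the 50 genes was 0.966 (limma).

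**Figure D5:**
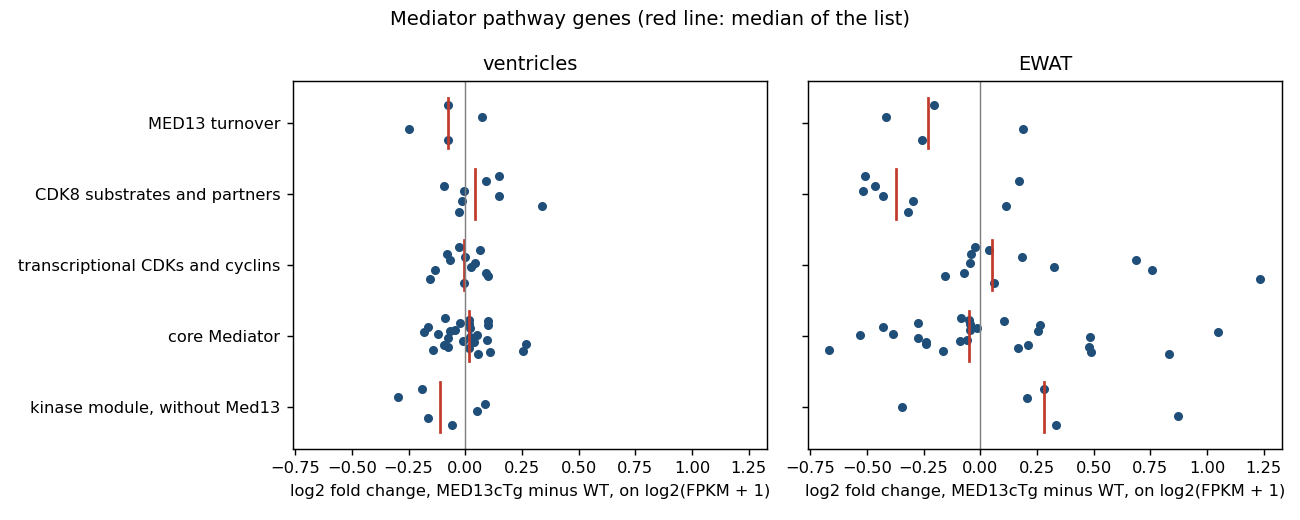
Log2 difference between MED13cTg and WT of each tested gene in the 4 pathway lists and of the kinase module genes other than Med13, with a red line at the median of each list. In ventricles the 50 pathway genes lie between -0.25 and 0.34, and in EWAT between -0.66 and 1.23.

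In EWAT none of the 50 pathway genes passed by limma (lowest adjusted p = 0.738), and none had an unadjusted p under 0.05 (1.25% of all genes). The MED13cTg libraries all exceeded the WT range in 3 genes and all fell short of it in 7, against 4.88% and 7.80% of all genes tested. By list, 1 core Mediator gene lay above WT and 4 below (median log2 difference -0.05), 2 of the other kinases and cyclins above and none below (0.05), 1 of the CDK8 substrates and partners below (-0.37) and 2 of the 4 ligase genes below (-0.23), where the median over all genes was 0.01. Of the 4 core genes below, Med25 shares its entry with Ptov1, and Med22 (with Surf4) and Ccnl2 (with Aurkaip1) are joined too, so that these 3 values cannot be assigned to the Mediator or cyclin gene alone. Med30, a core subunit, was 43.4 ± 3.53 FPKM in WT and 32.2 ± 5.95 in MED13cTg EWAT (log2 difference -0.43), and every MED13cTg library was below WT. Med14, the backbone subunit of core Mediator, was 11.4, 9.93 and 10.6 FPKM in WT, against 3.84, 5.49 and 11.6 in MED13cTg (-0.66), so that replicates 1 and 2 were low and replicate 3 was not. Cdk12, a kinase of the polymerase II tail, was 3.26 ± 0.279 FPKM in WT, against 8.56, 5.43 and 4.25 in MED13cTg (0.69), each above WT. Ccnt1, the cyclin of CDK9, was 1.57 ± 0.317 FPKM in WT, against 6.16, 3.28 and 1.64 in MED13cTg EWAT (0.76).

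Ccnk in EWAT was 11.7 to 14.0 FPKM in WT, against 180, 12.0 and 14.1 in MED13cTg, with the high value in the library rich in germ cell markers. Smad1, a mediator of BMP signals, was 24.4 ± 0.617 FPKM in WT EWAT and 18.1 ± 3.23 in MED13cTg (log2 difference -0.43), below WT in every library. Smad3, which carries TGF-beta signals, was 11.5 ± 1.14 and 8.66 ± 5.05 FPKM (-0.52), with overlap. Both ligase genes with the smallest p were below WT in every MED13cTg library. Rbx1, its RING subunit, was 61.5 ± 7.11 FPKM in WT and 46.4 ± 9.76 in MED13cTg EWAT (-0.41). Cul1, its scaffold, was 85.1 ± 3.05 and 71.0 ± 2.71 FPKM (-0.26). The unadjusted p of Cul1 was 0.217 (limma adjusted p = 0.738). Without MED13cTg replicates 1 and 2, the log2 differences in EWAT were -0.15 for Med30, 0.30 for Cdk12, 0.04 for Ccnt1, 0.12 for Ccnk, -0.19 for Smad1, -0.16 for Rbx1 and -0.23 for Cul1. Those of Med14 (0.12) and Smad3 (0.24) changed sign.

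The entries of the microRNAs that share the seed shown above were present in ventricles and listed at 0 in every EWAT library. They stand for precursor loci inside the myosin genes and do not measure mature microRNA, which this kind of library does not capture. Mir208a was 1333, 492 and 589 FPKM in WT ventricles, against 933, 0 and 842 in MED13cTg ventricles. Mir208b was 19801, 11205 and 14993 FPKM in WT, against 12421, 10109 and 9998 in MED13cTg ventricles (log2 difference -0.47, SE 0.26, limma adjusted p = 0.966). Myh6 and Myh7 shared a single entry, with 4773, 5378 and 4984 FPKM in WT, against 3117, 5822 and 5288 in MED13cTg ventricles, so the 2 host genes could not be told apart. All 3 entries overlapped between genotypes.

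Genes whose pattern across the 6 ventricular libraries was most like that of Med13 were sought by Pearson correlation on the log2(FPKM + 1) scale. Of 12588 other genes, 60 had an r of 0.9 or more, and with only 3 libraries per genotype and a large step between them these values mainly describe which genes share the step. The 5 highest were Snord15b (r = 0.997), Mir1894 (0.990), Pnmt (0.985), Pou6f1 (0.983) and 6430573F11Rik (0.981). Snord15b and Mir1894 were listed at 0 in all WT libraries, with 9.07 to 9.49 FPKM for Snord15b and 118 to 238 FPKM for Mir1894 in MED13cTg. Both are loci of short RNAs, and FPKM without counts does not show how few fragments lie behind these values. The Mir208a entry likewise read 0 in MED13cTg replicate 2, beside 933 and 842 FPKM in replicates 1 and 3. Whether Snord15b and Mir1894 differ between genotypes cannot be told from these values. Pnmt, the enzyme that makes adrenaline from noradrenaline, was 2.52, 1.74 and 2.22 FPKM in WT, against 7.62, 7.17 and 5.98 in MED13cTg ventricles. Pou6f1, a POU domain transcription factor, was 6.94 to 7.17 FPKM in WT and 8.38 to 8.58 FPKM in MED13cTg. No other subunit of the kinase module was among them.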

How the data were processed

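RNA of 12 libraries (WT and MED13cTg, ventricles and EWAT, 3 mice each) was sequenced after TruSeq preparation. The deposited FPKM values were made by the authors with TopHat and Cufflinks at default settings on mm9, with versions not given in the sources used here, and in a separate table for each tissue. Columns of the authors' means and fold changes were not used. Symbols joined on 1 entry were split. Genes whose average over a tissue's 6 libraries reached 1 FPKM (12589 in ventricles, 14967 in EWAT) were fitted as log2(FPKM + 1) with limma 3.58.1 (R 4.3.3) with a mean-variance trend, and p-values were adjusted by Benjamini-Hochberg over all genes tested, with a threshold of 0.05. Differences on this scale understate changes of low genes. Shares were compared by exact two-sided permutation tests (scipy 1.17.1). The fit was also run on simulated data, but no rate of recovered or falsely called genes is given from that run. The simulated libraries were all drawn from the means and SDs of the WT libraries. That run therefore does not show how the fit performs where libraries stand apart, as in EWAT.

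Members and lists were chosen with earlier results of these data known. Named were all members, every list gene past the threshold, the 2 list genes with the smallest unadjusted p per list and tissue, Mir208a, Mir208b, Myh6, Myh7 and the 5 genes most like Med13. Ccnk in EWAT was singled out after its values were seen, as was the rule that left the relative depth of EWAT MED13cTg replicate 1 open. Replicate numbers come from the sample titles. In EWAT, same-numbered WT and MED13cTg libraries deviated together from their group means (Pearson r across genes 0.144 to 0.347). WT replicate 3, however, correlated better with MED13cTg replicate 2 (0.168) than with its own number (0.144). The part of the marker sums in these correlations was not tested. The numbers were therefore not taken as established pairs, and the values shown are from fits without the block unless stated. Alternatives were another pseudocount, other filters and scalings, no trend, array weights, a replicate block, a library set covariate in ventricles, and leaving out libraries. Within a tissue each library was taken to come from a different mouse, as the paper's n = 3 implies, since the labels name no mice. Whether the same mouse gave both tissues is not given in the labels. The limma p-values weigh the genotype difference against the spread between these libraries, with each gene's variance moderated across genes. In EWAT, the MED13cTg libraries whose marker sums differ, as described above, enter both the genotype difference and the spread.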

Additional observations from a re-analysis of the deposited data

Results flagged for a closer look

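In 5 results the MED13cTg libraries all lay on one side of the WT mean in ventricles and all on the other side in EWAT. Only the members, the named list genes and the shares were searched. How many of all genes meet this rule was not counted, and the rule is looser than no overlap. These differences between tissues were not tested, and the EWAT values include MED13cTg replicates 1 and 2, the libraries that stand apart. For Cdk19 the genotype difference on log2(FPKM + 1) was -0.17 in ventricles and 0.87 in EWAT, 1.04 higher in EWAT. Without MED13cTg replicates 1 and 2 the EWAT difference of Cdk19 was 0.14. For Med12l the genotype difference was -0.30 and 0.64, 0.94 higher in EWAT. In EWAT, Med12l was below the filter of 1 FPKM and not among the genes tested. Its MED13cTg replicate 3 stood at 0.458 FPKM there, against 0.301 to 0.421 in WT. For Med18, a head subunit of core Mediator, the genotype difference was 0.27 and -0.24, a difference of -0.51. MED13cTg replicate 3 of Med18 in EWAT was 3.21 FPKM, against 3.64 to 3.80 in WT. The Med13 share of Med13 and Med13l changed by 31.9 percentage points in ventricles and by -5.83 in EWAT, a difference of -37.8. Its ventricular part includes the transgene, and its EWAT part was -2.23 without MED13cTg replicates 1 and 2. The Med12 share of Med12 and Med12l changed by 3.03 and -8.32 percentage points, a difference of -11.4. In EWAT, MED13cTg replicate 3 stood at 94.3% against a WT mean of 94.4%. The EWAT difference of the Med12 share was -0.10 without MED13cTg replicates 1 and 2.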

How the results depend on the processing

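Of 359 values recomputed for 27 results, 339 were labelled the same. For single genes this meant the same direction and side of the threshold, and for medians a move smaller than the spread between libraries. For shares it meant direction alone, or that spread where MED13cTg libraries 1 and 2 were left out. The Cdk8 share in EWAT thus counted as the same at -4.87 points without MED13cTg replicate 1, against -14.6. Counts of called genes that stayed at 0 are included. Med13 in ventricles passed under all 15 alternatives (log2 difference 3.93 to 4.29, adjusted p 2.52e-05 to 0.00351), and no other module gene and none of the 50 pathway genes passed under any in either tissue. None of the genes with a change of sign was called, and the cause was not tested. Cdk8 in ventricles was -0.14 with the library set as covariate and -0.16 to 0.33 with 1 library left out. Ccnc in ventricles was 0.21 with array weights and -0.211 to 0.0247 with 1 library left out. Med13 in EWAT was 0.0122 with median-of-ratios scaling, 0.0706 with array weights, 0.0742 without MED13cTg libraries 1 and 2 and -0.13 to 0.10 with 1 library left out. Ccnc in EWAT was -0.0943 without MED13cTg libraries 1 and 2. The difference in the Cdk8 share in ventricles was -1.06 to 10.2 percentage points with 1 library left out, reversing without WT replicate 2, and that of the Med13 share of the module in EWAT was -2.02 to 0.555, reversing without MED13cTg replicate 1. Without MED13cTg libraries 1 and 2, the differences in EWAT were -2.23 points for the Med13 share of Med13 and Med13l, -0.10 for the Med12 share and -1.92 for the Cdk8 share. That of the Med13 share of the module was 0.946 in this setting, against -1.03 with all libraries. Its sign changed, but it was labelled the same because the move was smaller than the spread between libraries. The median of the members other than Med13 in ventricles was -0.161 to -0.0511 with 1 library left out and -0.0585 with the 5 FPKM filter. The median of the 5 tested EWAT members other than Med13 was 0.28 with all libraries, against 0.01 over all genes. This EWAT median was 0.10 to 0.33 with 1 library left out. It was lowest without MED13cTg replicate 2, where it was not labelled the same. Without MED13cTg libraries 1 and 2 the median was 0.14.

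In the fit with the replicate block, Med13 in ventricles had a limma adjusted p of 0.00234. The module had 1 gene past the threshold in ventricles and 0 in EWAT, so the block changed no call among the module and pathway genes. Over all genes, the block left 3 higher and 1 lower in ventricles (3 and 4 without it) and 0 in EWAT (2 without it). In ventricles same-numbered libraries correlated from -0.192 to 0.140 in their deviations. There, as in EWAT, not every library correlated best with its own number, and the numbers were not taken as pairs. Paired sign flips of 3 pairs cannot give a p below 0.25. Summing several entries of a member was not run, since each has 1. With replicate 3 as the sole MED13cTg library in EWAT, the fit assumes that it varies like WT. FPKM without counts leaves depth unknown, and Med12l, the lowest member, is the one most limited by it.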
